A study of Mus musculus with 135 samples.

Results

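The transcripts described here are 10 genes that were selected on their measured levels in 1 oocyte, S1616, where they were high. S1616 is an oocyte of the old Tet2KO group. They are Lyz2, C1qa, C1qb, C1qc, Cd68, Ctsb, Fth1, Ccl6, H2-Aa and Cxcl13, 10 of the 53715 genes in the count tables, and each was found by its symbol. Because S1616 chose them, its own levels are given as a description without a test. The questions are which of the other 93 oocytes carry traces of the same transcripts, and which of the 10 are present in oocytes generally.

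Transcripts of single ovulated metaphase II oocytes from mice of C57BL6/129 strain were counted in 94 libraries. Old females were 10 to 12 months and young females 2 to 4 months of age. The groups were old Tet1KO (6 oocytes), old Tet2KO (7 oocytes), old WT (12 oocytes), young Tet1KO (15 oocytes), young Tet2KO (16 oocytes) and young WT (38 oocytes), where KO is a knockout of a gene for a TET enzyme, which oxidises methylated cytosine in DNA. Oocytes whose titles share an identifier form a set, and the 13 sets are the replicates, since the labels do not tie oocytes to animals. A set holds 1 to 14 oocytes, and the old Tet1KO set Old_Tet1-/-_315 is 1 oocyte. The old Tet2KO group is 1 set, S161, so every oocyte of that group, S1616 included, shares it. No allele is named in the labels beyond the genotype. Primordial germ cells (PGCs, the embryonic precursors of oocytes and sperm) at E13.5 were measured as 1 Tet2KO and 1 WT library, each made from pooled embryos.

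Total counts per oocyte lay between 2354503 and 12472307, with 3245239 in S1616, and no 2 of the 94 libraries were identical. Tet1 had a median of 0 CPM (counts scaled to the library total) in old Tet1KO oocytes and 1.25 CPM in old WT, and 0 CPM in young Tet1KO and 3.05 CPM in young WT. Tet2 had a median of 0.797 CPM in old Tet2KO oocytes and 2.95 CPM in old WT, and 1.01 CPM in young Tet2KO and 1.75 CPM in young WT. Tet2 counts remained in the oocytes labelled Tet2KO, at 0 to 4.93 CPM in old Tet2KO, against 1.44 to 6.95 CPM in old WT. S1616, at 4.93 CPM, was the highest of the 7 old Tet2KO oocytes and lay within the old WT range. Which part of Tet2 was deleted is not given in the sources used here. All 17 markers of oocytes lay within the range of the other oocytes in S1616. They summed to 17173 CPM in S1616, against a median of 21622 CPM and a range of 9898 to 29453 CPM in the other 93.

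Macrophages are phagocytes of blood and tissue that digest what they take up in lysosomes and present peptides on major histocompatibility complex (MHC) class II molecules. They are a main source of C1q, the recognition molecule of the classical complement pathway, which is built from the products of C1qa, C1qb and C1qc. The ovary and the reproductive tract hold resident macrophages, while a mature oocyte rests on a stored pool of maternal transcripts. Lyz2 encodes lysozyme, an enzyme that cuts bacterial cell walls. Cd68 encodes a glycoprotein of lysosome membranes, Ctsb the lysosomal protease cathepsin B, and Fth1 the heavy chain of the iron store ferritin. Ccl6 and Cxcl13 encode chemokines, and H2-Aa encodes the alpha chain of an MHC class II molecule. In the mm10 positions of the count tables, the C1q genes lie side by side on the minus strand of chromosome 4, C1qb at 136880129 to 136886187, C1qc at 136889804 to 136893065 and C1qa at 136895917 to 136898803. Lyz2 lies on chromosome 10 at 117277331 to 117282321, also on the minus strand.

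PU.1, encoded by Spi1, is a transcription factor of macrophages whose binding sites often hold the letters GAGGAA. RefSeq promoter windows of build GRCm38.p6 were at hand for 8 of the 10 genes, 9 windows in all. They are 250 bases upstream of a transcript start. In 3 of the 9 windows, those of C1qb, C1qc and Cd68, GAGGAA was found on one of the strands. Of all 32851 promoter windows of this length, 23.3% hold it. The windows of 4 genes are shown because they set a pair that holds the motif beside a pair without it. C1qb, Cd68 and Fth1 were present in oocytes at 1 CPM or more and Ccl6 was not. The windows shown lie outside the span that the count tables give for the gene. Each is written 5′ to 3′ on the strand of its gene, with the motif in capitals.

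C1qb promoter, chr4:136886201-136886450, minus strand: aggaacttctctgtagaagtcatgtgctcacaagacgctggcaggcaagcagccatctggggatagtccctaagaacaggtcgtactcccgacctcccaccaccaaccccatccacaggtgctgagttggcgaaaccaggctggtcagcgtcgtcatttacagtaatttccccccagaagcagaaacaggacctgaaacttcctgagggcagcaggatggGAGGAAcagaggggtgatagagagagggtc

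Cd68 promoter, chr11:69666171-69666420, minus strand: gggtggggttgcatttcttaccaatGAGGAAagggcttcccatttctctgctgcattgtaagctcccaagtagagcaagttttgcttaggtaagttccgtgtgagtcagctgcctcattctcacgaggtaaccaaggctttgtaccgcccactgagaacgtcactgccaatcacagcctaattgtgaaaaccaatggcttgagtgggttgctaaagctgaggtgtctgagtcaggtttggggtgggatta

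Ccl6 promoter, chr11:83593088-83593337, minus strand: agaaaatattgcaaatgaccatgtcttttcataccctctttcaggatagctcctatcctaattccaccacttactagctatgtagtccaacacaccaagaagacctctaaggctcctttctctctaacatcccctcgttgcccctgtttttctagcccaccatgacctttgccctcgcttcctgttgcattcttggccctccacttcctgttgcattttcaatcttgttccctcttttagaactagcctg

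Fth1 promoter, chr19:9982396-9982645, plus strand: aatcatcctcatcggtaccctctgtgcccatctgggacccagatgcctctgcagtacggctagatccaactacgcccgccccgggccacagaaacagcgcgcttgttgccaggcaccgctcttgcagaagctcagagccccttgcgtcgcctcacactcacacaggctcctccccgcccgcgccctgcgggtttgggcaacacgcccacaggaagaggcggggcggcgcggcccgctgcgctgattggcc

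The motif was found once in the C1qb and once in the Cd68 window, and no match lies in the Ccl6 and Fth1 windows. A match describes letters only. The match in the C1qb window starts 30 bases before the transcript start and that in the Cd68 window 225 bases before it. In C1qc, whose window runs into the annotated gene and is not shown, the match lies on the opposite strand, 193 bases before the start.

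In S1616 the 10 genes together took 0.345% of all counts, against a median of 0.00408% and a maximum of 0.0106% in the other 93 oocytes. Fth1 had 4154 counts (1280 CPM) in S1616, against a median of 13.2 CPM in the others, and Lyz2 had 3038 counts (936 CPM), against a median of 0. Ctsb had 1704 counts (525 CPM), C1qb 610 counts (188 CPM), C1qc 424 counts (131 CPM) and C1qa 316 counts (97.4 CPM). Ccl6 had 277 counts (85.4 CPM), Cxcl13 252 counts (77.7 CPM) and Cd68 187 counts (57.6 CPM), and H2-Aa was at 76.1 CPM. S1616 was above every other oocyte for all 10. Among all 7061 genes at 10 CPM or more in S1616, it was above every other oocyte for 358, which is 5.07%, and nothing is read from the comparison, since S1616 chose the 10.

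Scaled to exon length, which allows levels of different genes to be set side by side, Fth1 was at 1478 and Lyz2 at 711 CPM per kilobase in S1616. C1qb was at 173, C1qa at 93.6 and C1qc at 67.7 CPM per kilobase. Ctsb was at 86.8, Cxcl13 at 67.5, Ccl6 at 47.6, Cd68 at 45.8 and H2-Aa at 40.6 CPM per kilobase. The 3 chains of C1q are assembled in equal numbers, and their levels in S1616 differed by less than 3-fold.

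**Figure D1:**
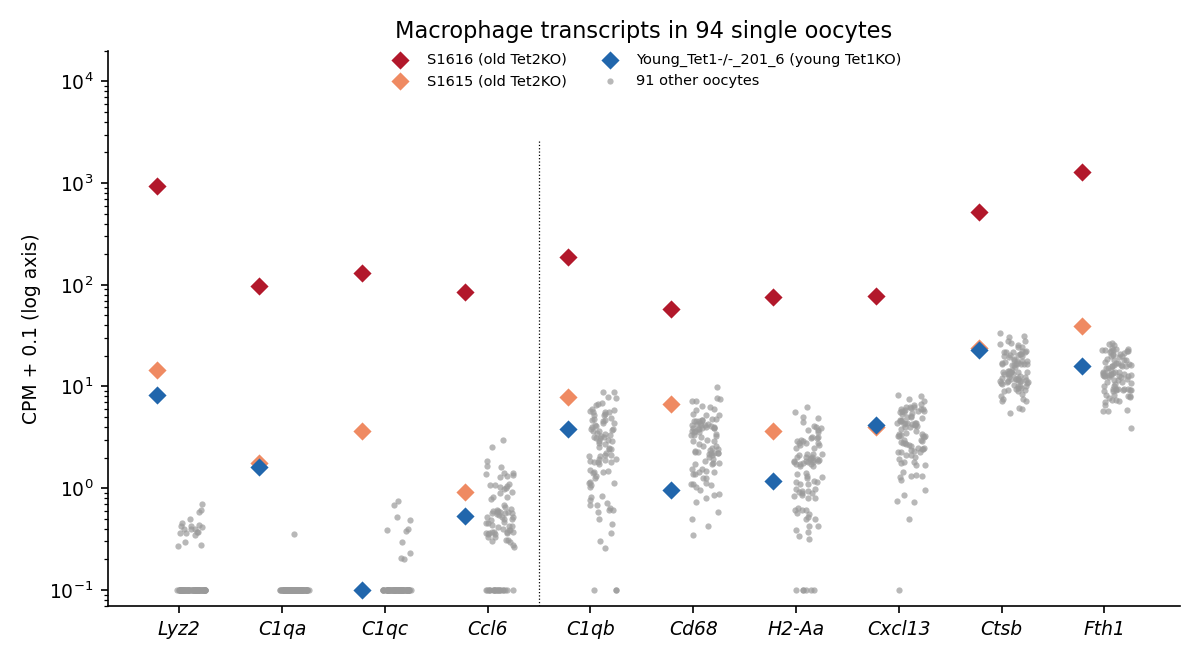
Level of each of the 10 genes in each of the 94 oocytes, as CPM plus 0.1 on a log axis; diamonds are oocytes S1616, S1615 and Young_Tet1-/-_201_6, grey points the other 91, and the dotted line separates genes with a median under 1 CPM (left) from the rest. S1616 lies above all others in every column, and in the Lyz2 and C1qa columns S1615 and Young_Tet1-/-_201_6 stand between it and the rest.

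The 10 genes fell into 2 groups in the other 93 oocytes. Lyz2, C1qa, C1qc and Ccl6 had a median under 1 CPM, and C1qb, Cd68, Ctsb, Fth1, H2-Aa and Cxcl13 had a median of 1 CPM or more. A median of 1 CPM or more was reached by 12468 of all 53715 genes, which is 23.2%. The genes next to that line were H2-Aa above it, with a median of 1.63 CPM, and Ccl6 below it, with a median of 0.358 CPM.

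Lyz2 was at 0 counts in 71 of the 93 oocytes, C1qa in 90 and C1qc in 81. A count of 0 in a library leaves up to 3 counts possible, which is 0.72 CPM in the oocyte T1481 with its total of 4165956. This limit and the intervals below cover counting error only. The highest Lyz2 level among the 93 was 14.6 CPM, in S1615, the next was 8.23 CPM, in Young_Tet1-/-_201_6, and the one after that was 0.605 CPM. C1qa had the same 2 oocytes at its top, with 1.65 CPM in S1615 and 1.52 CPM in Young_Tet1-/-_201_6, and then 0.258 CPM. C1qc was highest in S1615 with 3.58 CPM, and the next value was 0.653 CPM. These 2 oocytes therefore stood apart from the remaining 91 for Lyz2 and C1qa, and S1615 alone for C1qc.

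A trace was counted where at least 3 of the genes Lyz2, C1qa, C1qc and Ccl6 had at least 3 counts each. By that rule 2 of the 94 oocytes carried one, S1616 and S1615. S1615 had 53 counts of Lyz2, 6 of C1qa, 13 of C1qc and 3 of Ccl6. Young_Tet1-/-_201_6, singled out after its values were seen, missed the rule, with 38 counts of Lyz2, 7 of C1qa, 0 of C1qc and 2 of Ccl6. In the remaining 91 oocytes Lyz2 had at most 2 counts, C1qa at most 1 and C1qc at most 2. Ccl6 had a count in 70 of the 91, with up to 15, and S1614 had 3 like S1615, so Ccl6 does not set S1615 apart. Summed over Lyz2, C1qa and C1qc, S1616 had 3778 counts (95% Poisson interval 3658 to 3900), S1615 had 72 (56.3 to 90.7) and Young_Tet1-/-_201_6 had 45 (32.8 to 60.2). The 91 other oocytes had between 0 and 3, and 64 of them had 0.

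The other oocytes of the 2 sets did not share these counts. In set S161, Lyz2 had 1 count in S1612, 0 in S1613, 1 in S1614, 1 in S1617 and 0 in S1618, and C1qa had none in these 5. C1qc had 2 counts in S1617 and none in the other 4. Summed as CPM, Lyz2, C1qa and C1qc were at 1.70% of the S1616 level in S1615 (95% interval 1.33 to 2.15), against 0.0283% over the 5 other S161 oocytes (0.0092 to 0.0662). In set Young_Tet1-/-_201, Lyz2 had 1 count in Young_Tet1-/-_201_4 and none in the 5 remaining oocytes, against 38 in Young_Tet1-/-_201_6.

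The few single counts elsewhere were unevenly spread over the naming series of the titles, which coincides with the count table. With S1616, S1615 and Young_Tet1-/-_201_6 left aside, Lyz2 had a count in 19 of 53 oocytes of the T and S series, 24 counts in all, and in 1 of 38 numbered oocytes, 1 count in all. C1qc had a count in 10 of the 53 and in 1 of the 38, and C1qa in 1 of the 53 and in none of the 38. Ccl6 had a count in 45 of the 53 and in 25 of the 38. All 12 old WT and all 6 old Tet1KO oocytes are numbered, and none of them had a count of Lyz2, C1qa or C1qc, so group and series cannot be told apart there.

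Other macrophage markers, not among the 10 genes, ranked these oocytes in the same order where they had a median count of 0 elsewhere. Of 24 other macrophage markers, 16 had a median count of 0 in the 93 oocytes, among them Adgre1 (the F4/80 antigen), Tyrobp and Fcer1g (signalling adaptors of Fc and other receptors), Ctss (cathepsin S), Ptprc (the leukocyte antigen CD45), Spi1 and Cd14 (a receptor for bacterial lipopolysaccharide). These 16 summed to 2457 counts (757 CPM) in S1616, 54 counts (14.9 CPM) in S1615 and 20 counts (4.33 CPM) in Young_Tet1-/-_201_6, against 0 to 14 counts and at most 2.21 CPM in the other 91. At least 3 counts were reached by 14 of the 16 in S1616, by 7 in S1615 and by 3 in Young_Tet1-/-_201_6, against at most 2 in any other oocyte. Over all 24 markers only S1616 stood apart, at 1309 CPM. S1615 summed to 139 CPM, below the 153 CPM of T2114, and Young_Tet1-/-_201_6 to 72.3 CPM, below the median of 117 CPM over the 93.

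**Figure D2:**
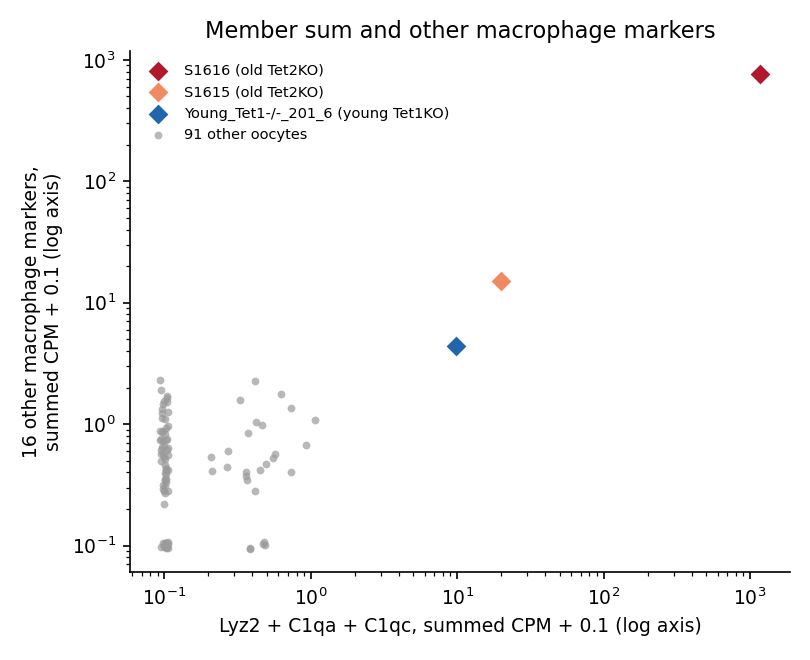
Each point is 1 oocyte, with the summed CPM of Lyz2, C1qa and C1qc plus 0.1 on the horizontal log axis and the summed CPM of 16 other macrophage markers plus 0.1 on the vertical log axis. S1616, S1615 and Young_Tet1-/-_201_6 (diamonds) are the only oocytes above 2 CPM on the horizontal axis, and the 91 others lie at or below 2.21 CPM on the vertical one.

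The comparison was widened to all genes, chosen again by S1616 and given as a description. With 0.5 added to both values, 115 of the 7061 genes at 10 CPM or more in S1616 were more than 10-fold above every other oocyte, which is 1.63%. They held 0.921% of all counts in S1616, against a median of 0.00555% and a maximum of 0.0231% elsewhere. They include 8 of the 10 members, all but Cd68 and Cxcl13. Of the 107 others, 96 had a median count of 0 in the other 93 oocytes. Those 96 genes summed to 14447 counts in S1616, 255 in S1615 and 150 in Young_Tet1-/-_201_6, against 2 to 58 counts in the 91 others. The highest of the 91 by CPM was Old_WT_247_6, with 14.5 CPM against 70.2 CPM in S1615. Among the 107, S1615 was the highest of the 93 for 35 and Young_Tet1-/-_201_6 for 11. Over all 33301 genes with a count in these 93 oocytes, S1615 was the highest for 0.883% and Young_Tet1-/-_201_6 for 0.925%.

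The 20 genes that stood furthest above every other oocyte in S1616 were AW112010, Il1b, Clec4e, Lilr4b, C3ar1, Fcer1g, Cd14, Spp1, Lyz2, Ccl5, Wfdc17, Pltp, Mir5107, Ctss, Tnfaip2, Lilrb4a, Acod1, Ctsc, Cd83 and C1qa. Spp1, which encodes the secreted phosphoprotein osteopontin, had 1548 counts (477 CPM) in S1616, and its highest level elsewhere was 6.98 CPM, in Old_WT_247_6. Ctss had 828 counts (255 CPM) in S1616 and at most 4.68 CPM elsewhere, in S1615. Il1b, which encodes the inflammatory cytokine interleukin 1 beta, had 230 counts (70.9 CPM) and C3ar1, the receptor of complement fragment C3a, had 189 counts (58.2 CPM). Clec4e, a lectin receptor of myeloid cells, had 144 counts, and Acod1, which makes itaconate in activated macrophages, had 120 counts. AW112010 had 194 counts in S1616 and none in any other oocyte. Mir5107 shares 12 of its 88 bases with exons of Cd74, which had 1036 counts in S1616, and the pairs Lilrb4a with Gm49339 and Pltp with Ctsa share 1846 and 495 exonic bases, so the counts of these genes cannot be told apart from those of their partners.

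By group of function, 5 of 6 MHC class II genes other than H2-Aa were above every other oocyte in S1616. That was so for 2.74% of all 53715 genes, and for 8.27% of the 17789 with a count in S1616. Cd74, the invariant chain that escorts class II molecules, had 319 CPM in S1616, 13.8 CPM in S1615 and 5.20 CPM in Young_Tet1-/-_201_6, against a median of 0 over the 93. H2-Ab1, the beta chain partner of H2-Aa, had 85.4 CPM in S1616, 2.20 CPM in S1615 and 0.433 CPM in Young_Tet1-/-_201_6, and Ciita, the class II regulator, had 0 counts in all 3. Of 11 complement genes other than C1q, 8 were above every other oocyte in S1616, led by C3ar1 at 58.2 CPM, Cfp (properdin) at 25.9 CPM and C5ar1 at 10.5 CPM. Of 19 genes of chemokines and their receptors other than Ccl6 and Cxcl13, 11 were above every other oocyte in S1616, with Ccl9 at 49.9 CPM, Cxcl16 at 39.4 CPM and Cxcl10 at 36.1 CPM. Ccl9 was next highest in S1615, at 8.81 CPM.

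Of 17 lysosomal genes other than Cd68 and Ctsb, 12 were above every other oocyte, and 9 of the 17 had a median of 1 CPM or more in the other 93. Ctsd (cathepsin D) had 257 CPM in S1616, against a median of 48.0 CPM, and Ctsc (cathepsin C) had 140 CPM, against a median of 0. Of 8 iron genes other than Fth1, 3 were above every other oocyte. Ftl1, the ferritin light chain, had 603 CPM in S1616, against a median of 34.6 CPM and a maximum of 152 CPM. Tfrc, the transferrin receptor, had 0 counts in S1616, below every other oocyte, against a median of 5.19 CPM. Slc11a1, an iron transporter of phagocytic vesicles, had 16.3 CPM, against at most 0.286 CPM.

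Of the 24 other macrophage markers, 22 had at least 3 counts in S1616 and 21 were above every other oocyte, while Cd163 was at 0. Most markers of other blood and tissue cells had 0 counts there, 8 of 9 for neutrophils, 7 of 8 for T and NK cells, 6 of 8 for theca and stroma, 5 of 7 for dendritic cells, 4 of 6 for oviduct epithelium, 9 of 16 for granulosa and cumulus, and all 5 for erythroid and all 3 for mast cells. Of the B cell markers 2 of 5 were at 0 and of the endothelial ones 2 of 6, where Ms4a1 and Pecam1, at 226 and 99.2 CPM in S1616, had medians of 117 and 100 CPM in the other 93. Of all 53715 genes, only 17789 had a count in S1616, so most genes of any kind were at 0 there. Nothing about these cell types is read from the shares at 0. Neutrophil markers S100a8 and S100a9, erythroid markers Hba-a1 and Hbb-bs, mast cell marker Mcpt4 and stromal markers Col1a1 and Col3a1 had 0 counts in S1616. Summed, the 8 T and NK cell markers had 0.308 CPM in S1616, within the range of 0 to 5.58 CPM of the others, and the 8 theca and stroma markers 0.924 CPM, within 0 to 8.09 CPM. The 16 granulosa and cumulus markers summed to 63.5 CPM in S1616, within 20.1 to 102 CPM. The 9 neutrophil markers summed to 3.70 CPM, above the 2.53 CPM of the highest other oocyte, all of it 12 counts of Csf3r. The B cell marker Cd79b had 27 counts in S1616 and none elsewhere, while Cd79a was at 0. The dendritic cell marker Itgax had 5 counts in S1616 (1.54 CPM), above the 1.05 CPM of the highest other oocyte. The 12 subset markers of macrophages summed to 85.4 CPM in S1616, within 32.2 to 145 CPM, and 3 of the 12 were above every other oocyte. Among them, Pf4 had 16.9 CPM in S1616 and at most 7.16 CPM elsewhere, in S1615. Timd4, at 16.9 CPM, was below its median of 30.7 CPM. A share of counts does not tell a whole cell, part of a cell and free RNA apart, and how the macrophage transcripts came into these libraries was not tested.

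**Figure D3:**
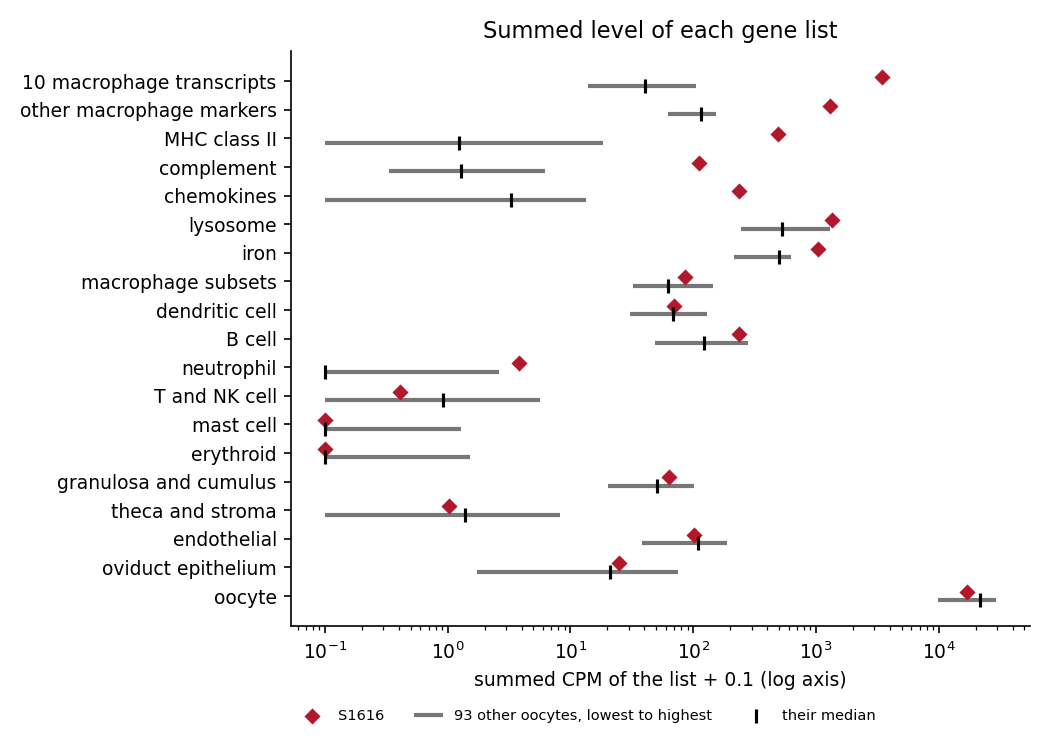
Summed CPM of each gene list plus 0.1 on a log axis, with S1616 as a diamond, the range of the 93 other oocytes as a bar and their median as a tick. The 10 macrophage transcripts, the other macrophage markers, MHC class II, complement, chemokine, lysosome, iron and neutrophil lists lie beyond the bar in S1616. The lysosome list does so by little (1355 CPM, against at most 1315 CPM). The macrophage subset list (85.4 CPM, against 32.2 to 145 CPM) and the lists of the other cell types lie within the bar.

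The levels of single genes in S1615 and Young_Tet1-/-_201_6 are given relative to S1616 as a description of these libraries. Relative to S1616, Lyz2 was at 1.56% in S1615 (95% interval 1.16 to 2.04) and at 0.879% in Young_Tet1-/-_201_6 (0.621 to 1.21). Cd74 was at 4.31% in S1615 (3.18 to 5.73) and at 1.63% in Young_Tet1-/-_201_6 (1.04 to 2.44). Spp1 had 0 counts in S1615, at most 0.173% of S1616, and 6 counts in Young_Tet1-/-_201_6, which is 0.272% (0.0998 to 0.594). C1qc was at 2.74% in S1615 (1.45 to 4.73) and had 0 counts in Young_Tet1-/-_201_6, at most 0.497%. Spp1 was named by a rule that favours genes low in every oocyte but S1616, so its low share is no finding. Il1b and C3ar1 had 0 counts in both, which leaves up to 1.17% of S1616 possible for Il1b and 1.42% for C3ar1 in S1615, at 3 counts. Cd14 had 3 counts in Young_Tet1-/-_201_6 and none in S1615, and Ptprc had 4 counts in S1615 and none in Young_Tet1-/-_201_6. These intervals compare libraries, not conditions.

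**Figure D4:**
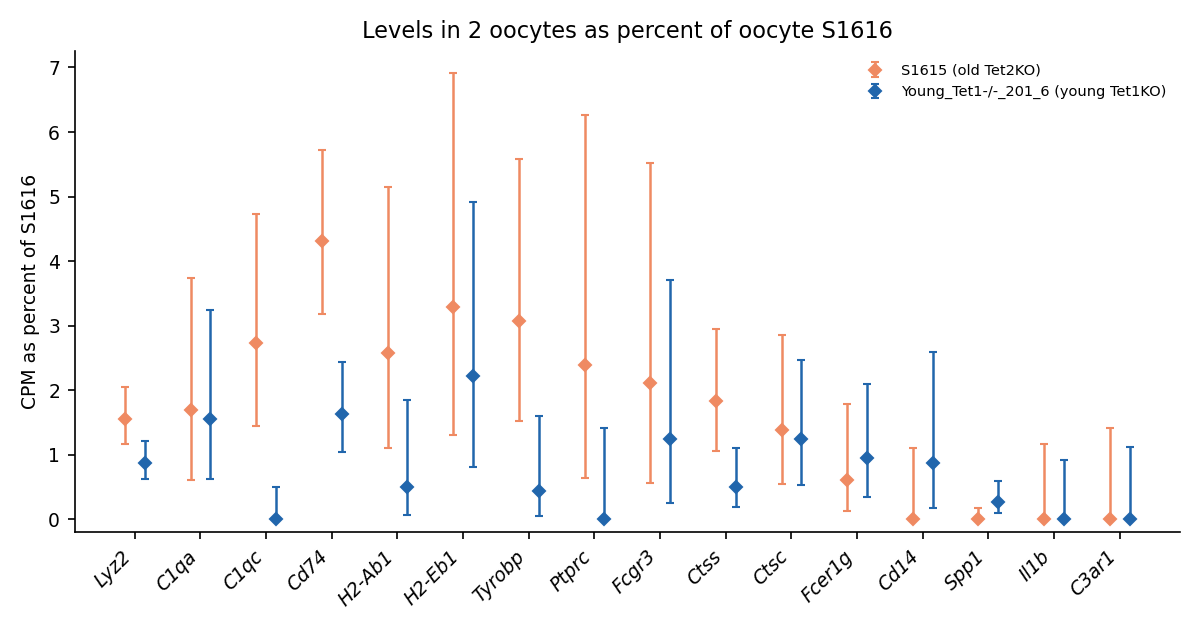
CPM of each gene in S1615 and in Young_Tet1-/-_201_6 as percent of its CPM in S1616, with 95% exact intervals for counting error and, at 0 counts, a bar up to the level of 3 counts. In S1615, Cd74 lies at 4.31% and Lyz2 at 1.56%, while Spp1 lies at 0 with a bar up to 0.173%.

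Oocyte S1615 was also the highest of its set, S1616 aside, for 5 of the 6 genes with a median of 1 CPM or more in the 93 oocytes. Over all 12468 genes with such a median, S1615 was the highest of these 6 oocytes for 17.1%. Fth1 had 144 counts (39.6 CPM) in S1615, the highest of the 93 oocytes, against 24 to 51 counts in the other 5 of its set. Cd68 had 24 counts in S1615, against 8 to 13 in the 5, H2-Aa had 13, against 0 to 4, and Ctsb had 86, against 34 to 61. C1qb had 28 counts in S1615, against 13 to 23, and Cxcl13 had 14, within the 4 to 21 of the 5. In Young_Tet1-/-_201_6, C1qb had 17 counts, against 0 to 9 in the 6 other oocytes of its set, and Ctsb had 106, against 27 to 89. Fth1 had 73, against 19 to 62. Its Cd68, H2-Aa and Cxcl13 counts, 4, 5 and 19, lay within the ranges of the other 6.

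As genes whose profile was most like the sum of Lyz2, C1qa, C1qc and Ccl6 over the 93 oocytes, by Pearson correlation of log2(CPM + 1) among 22714 genes, the 5 highest were Cd74 (0.68), Ctss (0.68), Trf (0.61), Ucp2 (0.58) and Stab1 (0.52). Without S1615 and Young_Tet1-/-_201_6, over 91 oocytes, the same correlations were -0.05 for Cd74, 0.19 for Ctss, 0.28 for Trf, -0.03 for Ucp2 and 0.12 for Stab1. The likeness thus rests on those 2 libraries, and all points share their library's depth across genes.

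Of the 6 genes present in oocytes at a median of 1 CPM or more, Fth1 and Ctsb had counts in all 93 oocytes other than S1616. Fth1 ranged from 3.81 to 39.6 CPM with a median of 13.2 CPM, and Ctsb from 5.42 to 33.1 CPM with a median of 13.8 CPM. Cd68 also had a count in all 93, from 0.249 to 9.68 CPM with a median of 2.81 CPM. Cxcl13 had a count in 92 (median 3.32, highest 8.09 CPM), C1qb in 90 (median 2.46, highest 8.82 CPM) and H2-Aa in 87 (median 1.63, highest 6.14 CPM). Per kilobase, the median levels were 15.3 for Fth1, 2.89 for Cxcl13, 2.28 for Ctsb, 2.26 for C1qb, 2.23 for Cd68 and 0.872 CPM for H2-Aa. The ranges over oocytes overlapped between neighbours in this order, which therefore does not hold beyond that spread. Of the C1q chains, C1qb had a count in 90 of the 93, while C1qa had one in 3 and C1qc in 12.

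The naming series differed in some of these levels. With S1616, S1615 and Young_Tet1-/-_201_6 left aside, C1qb had a median of 3.56 CPM in the 53 T and S oocytes and 1.51 CPM in the 38 numbered ones, and Cd68 had 3.83 CPM in T and S and 2.01 CPM in numbered oocytes. Ctsb, at 13.9 CPM in T and S and 12.7 CPM in numbered oocytes, and Fth1, at 13.8 CPM in T and S and 12.1 CPM in numbered oocytes, were closer. The ranges overlapped for all of them, and no test was made of the series.

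The Ctsb count has a limit. The tables were counted without strand and reads in an overlap went to each gene, and 774 of the 6051 exonic bases of Ctsb are shared with Fdft1, a cholesterol synthesis gene on the opposite strand with a median of 556 CPM in the 93 oocytes. The level of Ctsb in oocytes therefore cannot be told apart from reads of Fdft1. Over sets, Fdft1 ranged from 371 CPM in T211 to 1847 CPM in Young_Tet1-/-_201, while Ctsb was at 13.6 CPM in T211 and 14.02 CPM in Young_Tet1-/-_201. No other of the 10 shares exonic bases with another gene. Lyz1, the near-identical neighbour of Lyz2, had 11 counts in S1616 and 4 in all other oocytes together.

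Fth1 was above the rest of its set in 3 young WT oocytes rich in ribosomal protein transcripts. Ccl6 and C1qb were each above it in 2 of them, and H2-Aa in Young_WT__246_11 only. The 3 were Young_WT__246_10, Young_WT__246_11 and Young_WT__246_15. Fth1 had 21.3, 17.1 and 25.9 CPM in them, against 5.78 to 13.9 CPM in the 11 other oocytes of that set. Ccl6 had 1.54, 0.716 and 2.88 CPM, against 0 to 0.727 CPM in the 11, so that Young_WT__246_11 lay within their range. C1qb had 4.61, 4.81 and 3.07 CPM, against 0.160 to 3.15 CPM in the 11. H2-Aa had 4.95, 6.14 and 1.15 CPM, against 1.28 to 5.58 CPM in the 11. Lyz2 and C1qa had 0 counts in all 3, and C1qc 1 count in 1 of them. The 89 ribosomal protein genes summed to 3787, 7343 and 4560 CPM in these 3, against 844 to 2178 CPM in the other 11 of the set. S1616 was next in that order of all 94, with 2357 CPM, and its part in the levels of S1616 was not tested.

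Genotype and age were compared over sets, with counts summed per set and S1616 left out because it chose the genes. Summed per set, 7 of the 10 passed the filter on low counts, and C1qa, C1qc and Ccl6 did not. Lyz2 passed only through the sets that hold S1615 and Young_Tet1-/-_201_6. In edgeR's quasi-likelihood test, with p-values adjusted by Benjamini-Hochberg over all 14401 genes and a threshold of 0.05, none of the 7 was called in any of 5 comparisons. Of all genes, 0.0486% were called in old Tet1KO against old WT, 0% in old Tet2KO against old WT, 0.0208% in young Tet1KO against young WT, 0.0139% in young Tet2KO against young WT and 0.0417% in old WT against young WT. By direction, old Tet1KO had 0.0278% higher and 0.0208% lower, and young Tet1KO had 0.0139% higher and 0.00694% lower. At an unadjusted p under 0.05, the 6 members other than Lyz2 counted 0, 0, 1, 1 and 0 in the same order, and all genes 12.4%, 1.6%, 4.76%, 5.71% and 12.9%. DESeq2 and limma also called none of the 7. With S1616 kept, Fth1 and Ctsb were called in old Tet2KO, which S1616 itself fixes, where 0.0139% of all genes were called and 1.85% had an unadjusted p under 0.05. The p-values measure the spread between sets, which may be technical.

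Ctsb averaged 23.2 ± 0.964 CPM in young Tet2KO (SD, n = 2 sets) and 13.6 ± 0.915 CPM in young WT (SD, n = 4 sets). It had 22.5 CPM in set T213 and 23.9 CPM in T214 of young Tet2KO, against 13.9, 13.6, 14.5 and 12.4 CPM in the young WT sets T148, T211, T231 and Young_WT__246. The groups did not overlap. How many of all genes separate in this way between so few sets was not counted, so nothing is read from it. The log2 change of Ctsb was 0.74 (SE 0.24), with an unadjusted p of 0.00949 and an adjusted p of 0.826 in edgeR. Fdft1, which shares bases with it, had 513 and 599 CPM in the young Tet2KO sets, against 490, 371, 470 and 1045 CPM in the young WT sets, and its part in the difference was not tested.

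Fth1 averaged 8.90 ± 1.41 CPM in young Tet1KO (SD, n = 2 sets) and 14.3 ± 2.18 CPM in young WT (SD, n = 4 sets). It had 9.90 CPM in set T146 and 7.91 CPM in Young_Tet1-/-_201 of young Tet1KO, against 12.2, 16.3, 15.98 and 12.6 CPM in the 4 young WT sets. The groups did not overlap. The share of all genes that separate in this way was not counted here either, so nothing is read from it. In young Tet2KO, Fth1 lay on the other side, at 17.3 CPM in T213 and 19.7 CPM in T214, above the same 4 young WT sets. Cxcl13 lay below the young WT sets in young Tet1KO, at 2.55 and 2.54 CPM against 2.91 to 4.83 CPM. The log2 change of Fth1 in young Tet1KO was -0.57 (SE 0.25), the unadjusted p was 0.0442 and the adjusted p 0.967 in edgeR. Between old Tet1KO and old WT, Fth1 had 15.2 and 13.9 CPM in the old Tet1KO sets, against 18.3 and 11.9 CPM in the old WT sets, and the values overlapped. The 13.9 CPM are from Old_Tet1-/-_315, a set of 1 oocyte. The difference of the Tet1KO effect on Fth1 between old and young was 0.69 (SE 0.37, edgeR adjusted p 0.819), in a comparison where 0% of all genes were called and 5.74% had an unadjusted p under 0.05.

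H2-Aa had 1.16 and 0.591 CPM in the young Tet2KO sets, against 2.18, 1.59, 1.56 and 3.28 CPM in the young WT sets. These also did not overlap, again without a count of how many of all genes do so. The log2 change of -1.32 (SE 0.60) had an adjusted p of 0.826 in edgeR. C1qb differed between sets of the same group. It had 5.96 and 1.17 CPM in the 2 young Tet1KO sets, against 1.598 to 4.79 CPM in the 4 young WT sets, and 6.12 CPM in set S161 without S1616, against 2.41 and 1.92 CPM in old WT. Cd68 had 4.15 CPM in S161, against 4.09 and 2.63 CPM in old WT, and Cxcl13 had 4.42 CPM in S161, against 3.09 and 2.55 CPM in old WT. Set S161 is of the T and S series and still holds S1615, while both old WT sets are numbered. Group and naming series therefore cannot be told apart for C1qb, Cd68 and Cxcl13 there. The 2 young Tet1KO sets, T146 and Young_Tet1-/-_201, also differ in series.

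**Figure D5:**
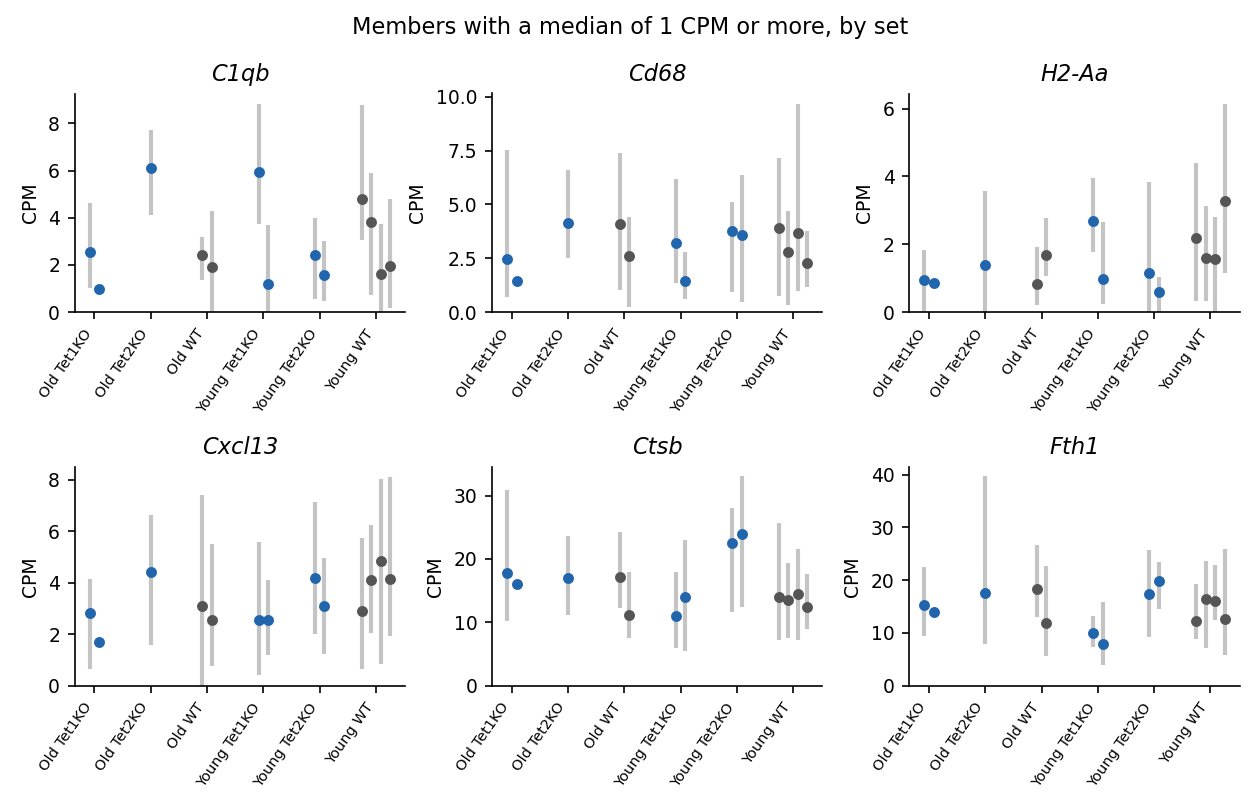
CPM of the 6 genes with a median of 1 CPM or more, with 1 point per set (S1616 left out) and a grey bar from the lowest to the highest oocyte of the set; blue points are knockout and grey points WT sets. Ctsb lies at 22.5 and 23.9 CPM in young Tet2KO, above the young WT sets. Fth1 lies at 9.90 and 7.91 CPM in young Tet1KO, below the young WT sets, and at 17.3 and 19.7 CPM in young Tet2KO, above them. How many of all genes separate in this way was not counted.

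Lyz2 in old Tet2KO without S1616 rested on 1 oocyte. The set had 56 counts, of which S1615 gave 53, against 0 counts in the 2 old WT sets. No p is given for it, since Lyz2 was tested only because of that oocyte. With S1615 also left out, Lyz2 no longer passed the filter. In young Tet1KO, the sets had 5 and 39 counts of Lyz2, of which Young_Tet1-/-_201_6 gave 38, against 4, 1, 2 and 0 counts in the young WT sets.

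In the PGC libraries, where values are the authors' FPKM (fragments scaled to transcript length and library size, depth unknown) and a single library per genotype allows no test, Fth1 was the highest of the 10, at 649 FPKM in Tet2KO and 604 FPKM in WT. Ctsb was at 18.6 FPKM in Tet2KO and 22.4 FPKM in WT. The 3 C1q chains were all present, C1qa at 1.58 FPKM in Tet2KO and 1.62 FPKM in WT, C1qb at 1.76 FPKM in Tet2KO and 2.30 FPKM in WT, and C1qc at 2.11 FPKM in Tet2KO and 2.15 FPKM in WT. Cd68 was at 2.15 FPKM in Tet2KO and 2.37 FPKM in WT, and Lyz2 at 0.35 FPKM in Tet2KO and 0.59 FPKM in WT. H2-Aa, Ccl6 and Cxcl13 were at 0.11 FPKM or less in both, near the lowest value of the table, 0.01 FPKM. Among macrophage markers, Csf1r was at 1.25 FPKM in Tet2KO and 1.28 FPKM in WT and Tyrobp at 1.32 FPKM in Tet2KO and 1.68 FPKM in WT. The part of other cells in these pools was not tested.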

How the data were processed

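Counts per gene of single oocytes and FPKM of PGC pools were used as deposited, and no reads were aligned. The authors' oocyte tables hold unnormalized counts, made with featureCounts 1.6.2 on GENCODE mouse release 17 for fragments of mapping quality 30 or more, with multi-mapped and overlapping reads counted for each gene and without strand, per the file headers. HISAT2, SAMtools and mm10 are named in the submitters' processing notes, without versions. The authors deposited the PGC values as FPKM. Of 135 samples, 94 oocytes matched a count column by name and 39 did not, and 39 columns that matched no label were not used. The tables were joined on their 53715 genes, 95 of which have no symbol.

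CPM are counts scaled to the library total. Differential expression was tested with edgeR 4.0.16 in R 4.3.3 (quasi-likelihood F test, TMM) on counts summed per set without S1616, with group means and a term for the naming series (none for old Tet2KO against old WT, where both coincide; its single set is taken to vary as other groups do). Genes at 1 CPM or more in at least 2 sets were tested, and p-values were adjusted by Benjamini-Hochberg over all of them. Standard errors (SE) were derived from the F statistic, as the size of the log2 change over its root. The procedure was tested on simulated data. Alternatives used DESeq2 1.42.0 and limma 3.58.1, other size factors and filters, and sets or oocytes left out. Poisson and ratio intervals are exact at 95%, from scipy 1.17.1. Genes were named by rule: the 10 members, the 20 of largest ratio of S1616 to the highest other oocyte, up to 6 of each marker list by level in S1616, and the 5 most alike in profile. A few genes outside that rule (Tfrc, Adgre1, Ptprc, Spi1, Itgax, Csf1r, Fdft1, Lyz1 and markers at 0) were named after their values were seen. The members and lists were chosen with earlier results of these data known. Gene positions are those of the count tables, and promoter windows are RefSeq's, build GRCm38.p6.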

Additional observations from a re-analysis of the deposited data

Results flagged for a closer look

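In groups of 4 to 10 values, 12 of 27 groups looked at had a value whose gap to its nearest neighbour was large against the group's range. Of these, 10 are S1616 among the 7 old Tet2KO oocytes, fixed by the choice of genes and no support for anything. For normally distributed values, chance alone gives such a value in about 1 of 20 groups. That rate need not hold for the low counts of the 2 others, and it does not hold for C1qa. The values of S1616 were 936 CPM for Lyz2, 97.4 CPM for C1qa, 188 CPM for C1qb, 131 CPM for C1qc and 57.6 CPM for Cd68. They were 525 CPM for Ctsb, 1280 CPM for Fth1, 85.4 CPM for Ccl6, 76.1 CPM for H2-Aa and 77.7 CPM for Cxcl13. The nearest of the other 6 was S1615 for Lyz2 (14.6 CPM), C1qa (1.65 CPM) and C1qc (3.58 CPM). Among the 6 old Tet1KO oocytes, Old_Tet1-/-_209_6 had 7.55 CPM of Cd68, against at most 2.09 CPM in the other 5. Among the 4 young WT sets, T211 had 0.0347 CPM of C1qa, which is 1 count, against 0 in the others, so that any count would have stood apart.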

How the results depend on the processing

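No member passed the threshold in the main tests, and of 660 member values under alternatives 621 kept their sign and 657 their side of the threshold. The 3 exceptions were Lyz2 without a filter on low counts (against 0 counts in old WT), and Ctsb and Fth1 with S1616 kept, all in old Tet2KO against old WT. The members called over the 5 comparisons were thus 1 without a filter and 2 with S1616, which chose them, and 0 with any set left out.

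The number of oocytes that met the trace rule was 27 when 2 genes with 1 count each sufficed, and 1 at 10 counts each. Under the looser rule a single count of another gene beside Ccl6 sufficed, and Ccl6 had a count in 72 of the 93 oocytes. The 27 are therefore not read as oocytes with macrophage transcripts. The number of members present fell to 2 at a threshold of 10 CPM, namely Fth1 and Ctsb. Counts of all genes called moved more. For young Tet1KO against young WT the count was 3, 248 without a filter and 30 with DESeq2. For young Tet2KO against young WT it was 2, 219 without a filter, 16 with DESeq2 and 6 with T-series sets only. For old Tet1KO against old WT it was 7, 576 without a filter, 305 with DESeq2, 11 with limma and 4 without the naming series. For old Tet2KO against old WT it was 0, 76 without a filter, 1 with DESeq2 and 2 with S1616. For old WT against young WT it was 6, 665 without a filter, 331 with DESeq2, and 0 with limma and without the naming series. Leaving out each set gave 2 to 8, 2 to 3, 0 to 16, 0 to 0 and 0 to 40 calls in the same order. Calls in young Tet1KO moved without T146 (8), T148 (6), Young_Tet1-/-_201 (6) and Young_WT__246 (5). Those in old Tet1KO moved without Old_WT_247 (0), Old_Tet1-/-_315 (3), Young_WT__246 (11), Young_Tet1-/-_201 (11) and Old_Tet1-/-_209 (16). Those in old WT against young WT moved without Old_WT_365 (0), Old_WT_247 (0), Young_WT__246 (1), T213 (3), T148 (10), Old_Tet1-/-_315 (10), T231 (12), Young_Tet1-/-_201 (36) and T146 (40). Alternatives were chosen after seeing the data: without S1615, 0 genes were called in old Tet2KO, and without Young_Tet1-/-_201_6, 3 in young Tet1KO. The causes were not tested. No paired analysis was possible because the replicates are sets whose names carry no number shared between groups. With 1 to 3 counts of Lyz2, C1qa or C1qc, depth limits what can be said of a single oocyte.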
